A study of Mus musculus with 6 samples.

Results

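Actin filaments grow and shrink at their ends, and the 10 genes described here encode proteins that bind those ends: the capping protein subunits Capza1, Capza2 and Capzb, the gelsolin family members Gsn and Capg, the tropomodulins Tmod1, Tmod2 and Tmod3, and the barbed-end binders Eps8 and Add1. They were chosen by name, as the rows whose deposited gene symbol equals one of these 10 names, and all 10 were found among 27179 genes in the table. RNA was measured by poly(A) sequencing in the cerebral cortex of C57BL/6N mouse embryos at E18.5. The Control group (3 libraries, FF1, FF2 and FF4) carried the genotype Cap1 flx/flx, and the CAP1-KO group (3 libraries, FCRE3, FCRE4 and FCRE5) carried the same floxed alleles together with Nestin-CRE. CAP1 is an actin monomer-binding protein that helps to take filaments apart at their ends and recharges actin for new growth. The Nestin promoter is active in neural progenitors, so blood vessels, microglia and meninges of the same tissue are not its main targets. No group carried Nestin-CRE without the floxed alleles, so the transgene and the loss of CAP1 cannot be told apart.

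An actin filament has a fast-growing barbed end and a slow pointed end. Capping protein, a dimer of 1 alpha and 1 beta subunit, closes the barbed end and so sets how many filaments can elongate, while tropomodulins close the pointed end and bind tropomyosin along the filament side. Gelsolin cuts filaments in the presence of calcium and stays on the new barbed end. In neurons these proteins shape growth cones, dendritic spines and the spectrin-actin lattice under the axon membrane, of which adducins are the end caps. The samples compare cortices of Cap1 flx/flx embryos with and without Nestin-CRE. The series title names gene expression driven by SRF, a transcription factor whose MRTF coactivators are held back by actin monomers.

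Recovered depth was 32443864 to 36302598 reads per library, and levels are given in CPM, reads relative to a library's scaled total, of which 1 stood for 31.2 to 37.3 reads. Cap1, the targeted gene, measured 194 CPM in FF1, 193 CPM in FF2 and 166 CPM in FF4, against 86.6, 85.9 and 82.9 CPM in the CAP1-KO libraries FCRE3, FCRE4 and FCRE5 (limma log2 fold change -1.10, adjusted p = 0.000283). Markers of the labelled tissue were present in every library: 8 cortical projection neuron genes summed to 3090.3 CPM in FF1 and 3146 CPM in FF2, but to 2094 CPM in FF4, which lay among the CAP1-KO libraries (2084 to 2272 CPM). FF4 therefore stood apart from the other Control libraries, and results that change without it are given with and without it. Embryo sex was not balanced either: the Xist level was 0.58 CPM for FF1 and 2.05 CPM for FF4, but 2296 CPM for FF2 and 2398 to 2653 CPM for the CAP1-KO libraries. The labels call the libraries biological replicates and name no litter for any of them. Some markers of other cells were higher in the CAP1-KO libraries: 8 choroid plexus genes summed to 1.73 to 6.04 CPM in Control and 55.3 to 119 CPM in CAP1-KO, most of it Ttr. The sums of 10 mural cell genes were 165 to 179 CPM in Control and 198 to 236 CPM in CAP1-KO. Acta2 and Myh11 were the 2 genes of that list with a limma adjusted p under 0.05, both higher. With these 2 left out, the sums were 164 to 176 and 157 to 179.8 CPM. The list's median log2 fold change was 0.04. Endothelial genes were lower, with sums of 159 to 177 and 125 to 141 CPM. None of these genes was at 0 in all libraries, and the part of these cells in the results was not tested.

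Among the 10 genes only Capzb, the beta subunit of capping protein, passed the test of CAP1-KO against Control. All 10 passed the filter of a mean of at least 1 CPM, 1 rose and 0 fell (limma on log2(CPM + 1), Benjamini-Hochberg adjusted p under 0.05 over 13885 genes), against 0.562% of all genes tested that rose, 0.403% that fell and 0.965% in either direction. At an unadjusted p under 0.05 the count was 3, namely Capzb, Gsn and Add1, against 23.0% of all genes tested. The 10 log2 fold changes ran from -0.16 to 0.45 with a median of -0.0017, beside a median of -0.0059 over all genes tested, and 5 were positive and 5 negative (48.3% and 51.7% of all genes tested). In 5 of the 10 the groups did not overlap (Capzb, Capza1 and Gsn higher in CAP1-KO, Tmod2 and Add1 lower), against 25.6% of all genes tested (11.1% higher and 14.6% lower). In bulk tissue, fewer cells of a type and less RNA per cell cannot be told apart.

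**Figure D1:**
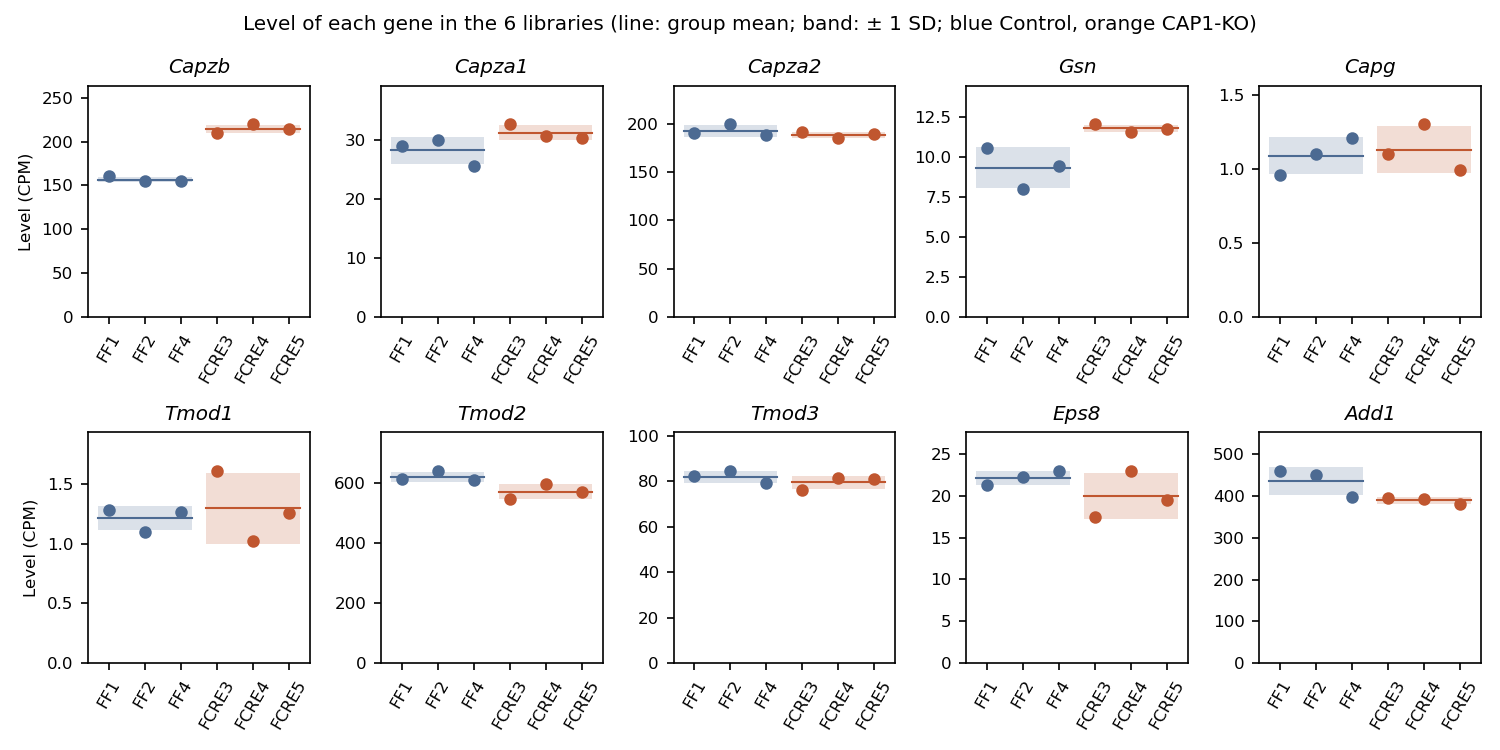
Level in CPM (y axes, each starting at 0) of the 10 genes in the 6 libraries, with the group mean as a line and ± 1 SD as a band. Capzb sits at 154.5 to 160.2 CPM in Control and 209.5 to 219.7 CPM in CAP1-KO, while Capza2 stays between 185 and 199.7 CPM in all 6 libraries.

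Capzb lies on chromosome 4 at 139192899 to 139291820 (GRCm38; gene number 12345). It measured 160.2 CPM in FF1, 155 CPM in FF2 and 154.5 CPM in FF4, against 209.5, 219.7 and 214 CPM in FCRE3, FCRE4 and FCRE5. The lowest CAP1-KO library lay well above the highest Control library, and the libraries within a group were close together. Its mean rose from 157 ± 3.10 to 215 ± 5.11 CPM (SD, n = 3 each), a ratio of 1.37. The log2 fold change was 0.45 (SE 0.04, 95% interval 0.35 to 0.55, limma adjusted p = 0.00371), which ranked 32 of 13885 genes by p and 390 by fold change. The spread within a group was 1.98% of the mean in Control and 2.38% in CAP1-KO, where counting alone gives 1.25%. With the Xist level as a covariate the log2 fold change was 0.47, but the limma adjusted p was 0.0943, in a fit that called 0.187% of genes; in the other 13 alternatives Capzb kept its call. Among the libraries with high Xist, FF2 had 155 CPM and the CAP1-KO libraries 209.5 to 219.7 CPM.

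The alpha subunits, which can each pair with the beta subunit, did not pass the test. Capza2 (gene number 12343, chromosome 6, 17637010 to 17666972) measured 191, 199.7 and 189 CPM in FF1, FF2 and FF4 and 191, 185 and 190.2 CPM in FCRE3, FCRE4 and FCRE5. The groups overlapped, and the 95% interval of its log2 fold change ran from -0.13 to 0.07 (estimate -0.03, limma adjusted p = 0.725). Capza1 (gene number 12340, chromosome 3, 104822781 to 104864505), the less abundant alpha subunit, measured 29.1, 30.1 and 25.7 CPM in Control and 32.7, 30.8 and 30.4 CPM in CAP1-KO. Its CAP1-KO libraries were all above its Control libraries, by a margin of 30.1 against 30.4 CPM at the nearest point, and its log2 fold change of 0.14 (95% interval -0.02 to 0.31) had a limma adjusted p of 0.279. Its log2 fold change was 0.08 without FF4, the lowest library, and 0.06 with the Xist covariate.

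The balance of beta to alpha transcripts had no overlap between the groups. Levels of different genes were compared per kilobase of all annotated exonic bases (GENCODE M21). On that scale the ratio of Capzb to the sum of Capza1 and Capza2 was 1.21 in FF1, 1.12 in FF2 and 1.21 in FF4, against 1.54 in FCRE3, 1.68 in FCRE4 and 1.61 in FCRE5. Every CAP1-KO library lay above every Control library, and the mean ratio was 1.18 ± 0.049 in Control and 1.61 ± 0.069 in CAP1-KO (SD, n = 3 each). The log2 ratio differed by 0.45 (exact two-sided permutation p = 0.1, the smallest that 3 against 3 libraries allow), and by 0.41 to 0.48 when each library was left out in turn. This ratio does not depend on how libraries are scaled, but it shows unequal change only, and its absolute value depends on the lengths used. The log2 fold change was also 0.45 for Capzb and -0.03 for Capza2, the more abundant alpha subunit. The ratio is therefore not a result separate from that of Capzb. Capza1 made up 18.6% ± 0.93 of the alpha transcripts in Control and 20.5% ± 0.54 in CAP1-KO, on the same scale.

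**Figure D2:**
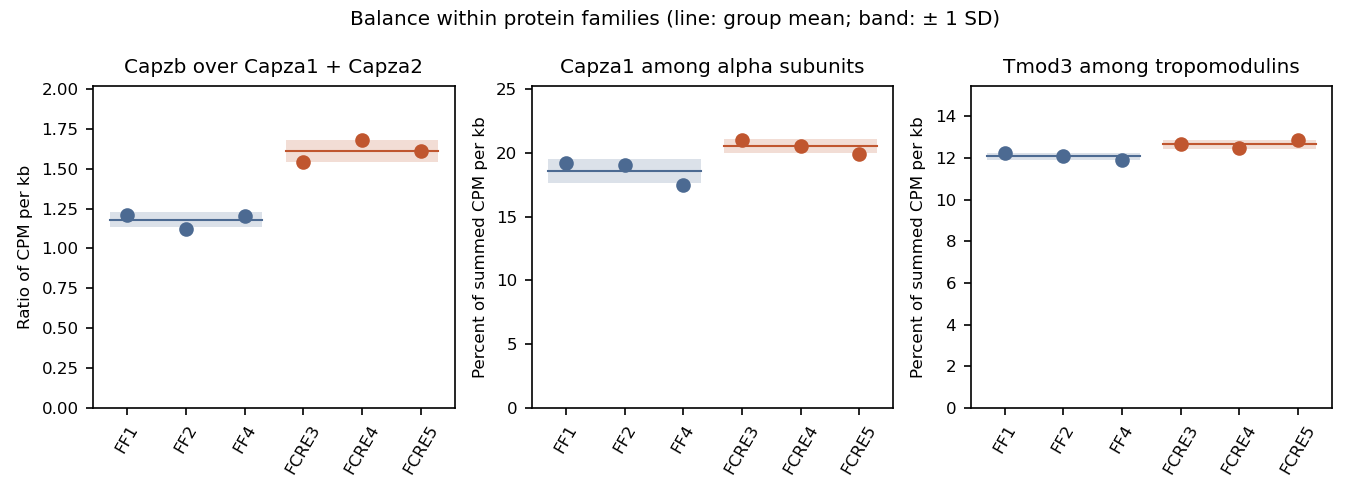
Ratio of Capzb to both alpha subunits (left), share of Capza1 among alpha subunits (middle) and share of Tmod3 among tropomodulins (right), per library, from CPM per kilobase, with group means and ± 1 SD bands. The left panel separates the Control libraries (1.12 to 1.21) from the CAP1-KO libraries (1.54 to 1.68).

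The promoters of the 3 capping protein genes are shown because their products form 1 dimer while only the beta subunit transcript passed the test. Each is the 250 bases before the annotated start on the gene's strand (RefSeq, GRCm38.p6), at chr4:139193861-139194110 (plus strand) for Capzb, chr3:104864506-104864755 (minus strand) for Capza1 and chr6:17636760-17637009 (plus strand) for Capza2, with GC boxes (GGGCGG, or CCGCCC on the other strand) in capitals. The annotated start used for Capzb lies 1212 bases inside the gene's RefSeq span given above. Those of Capza1 and Capza2 coincide with the first base of their genes.
Capzb: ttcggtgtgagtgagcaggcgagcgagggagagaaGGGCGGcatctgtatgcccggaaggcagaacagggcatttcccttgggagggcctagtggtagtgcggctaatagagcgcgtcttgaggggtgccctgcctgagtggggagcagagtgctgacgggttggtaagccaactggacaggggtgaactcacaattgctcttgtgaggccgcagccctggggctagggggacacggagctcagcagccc
Capza1: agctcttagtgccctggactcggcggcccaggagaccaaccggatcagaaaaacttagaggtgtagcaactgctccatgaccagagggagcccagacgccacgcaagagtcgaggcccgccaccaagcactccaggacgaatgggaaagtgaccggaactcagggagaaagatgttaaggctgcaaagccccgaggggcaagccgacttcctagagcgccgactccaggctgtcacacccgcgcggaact
Capza2: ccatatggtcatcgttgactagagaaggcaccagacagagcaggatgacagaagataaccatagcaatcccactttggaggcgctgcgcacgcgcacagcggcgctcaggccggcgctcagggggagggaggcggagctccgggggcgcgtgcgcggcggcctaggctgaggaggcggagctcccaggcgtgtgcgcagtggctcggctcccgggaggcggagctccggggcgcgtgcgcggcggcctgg
The Capzb window holds 1 GC box and 11 CG dinucleotides, while the Capza1 window holds 0 GC boxes and 16 CG dinucleotides and the Capza2 window 0 and 28. GC boxes occur in 32.7% of all 32851 windows of this length. The CArG box, the site that SRF is known to bind, was searched by its 10-base consensus, which reads the same on both strands. It occurred in 0 of 11 windows of the 8 members found in the promoter table and in 1.47% of all windows. In a list of actin and SRF-related genes it occurred in 7 of 20 windows, from 6 of 16 genes (Fhl2, Myl9, Cnn2, Actg1, Vcl and Srf). A match is a description of letters only, and sites outside these windows were not searched.

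The gelsolin family members Gsn and Capg were low in this tissue and did not pass the test. Gsn (gene number 227753, chromosome 2, 35256359 to 35307902), which cuts and caps filaments, measured 10.5 CPM in FF1, 7.98 CPM in FF2 and 9.43 CPM in FF4, against 12.01, 11.5 and 11.7 CPM in FCRE3, FCRE4 and FCRE5. All CAP1-KO libraries were above all Control libraries, and the CAP1-KO libraries varied by 2.10% of their mean while the Control libraries varied by 13.8%. The log2 fold change was 0.31 (SE 0.10, 95% interval 0.08 to 0.55), with a limma adjusted p of 0.133 and of 0.0607 to 0.381 over 14 alternatives, so Gsn was not called in any of them. The estimate depended on FF2, the lowest library: without it the log2 fold change was 0.22, and with the Xist covariate 0.52. Gsn is also known from oligodendrocytes and connective tissue. Oligodendrocyte lineage markers (9 genes) summed to 223 to 252 CPM in Control and 194 to 234 CPM in CAP1-KO. Meningeal fibroblast markers (10 genes, none at 0) summed to 57.6 to 62.7 CPM in Control and to 61.1, 170.0 and 159 CPM in FCRE3, FCRE4 and FCRE5. The part of these cells in the Gsn level was not tested.

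Capg, which caps but does not cut filaments and is known from macrophages, was near the filter. It had 30 reads in FF1, 37 in FF2 and 40 in FF4, and 41, 47 and 34 in FCRE3, FCRE4 and FCRE5. The groups overlapped, and the pooled reads gave a ratio of 1.04 of CAP1-KO to Control (95% exact interval 0.793 to 1.36, counting error only; limma log2 fold change 0.03, adjusted p = 0.917). Counting error alone was 16.2% of the level, larger than the spread of 11.3% in Control and 13.9% in CAP1-KO, so a difference within that interval was not detectable at this depth. Microglia and macrophage markers (12 genes, none at 0) summed to 42.1 to 57.1 CPM in Control and 64.5 to 85.3 CPM in CAP1-KO, and all 12 had positive fold changes with 0 called (limma); their part in the Capg level was not tested.

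Tropomodulins cap the pointed end, and none of the 3 passed the test. Tmod2 (gene number 50876, chromosome 9, 75565621 to 75611342), the neuronal form, measured 614 CPM in FF1, 639.9 CPM in FF2 and 609.8 CPM in FF4, and 545, 596 and 571 CPM in FCRE3, FCRE4 and FCRE5. Every CAP1-KO library was below every Control library, and the log2 fold change was -0.12 (95% interval -0.25 to 0.01, limma adjusted p = 0.240), with adjusted p of 0.0731 to 0.556 over 14 alternatives and -0.06 with libraries scaled to total reads. Tmod3 (gene number 50875, chromosome 9, 75497784 to 75559657), the widely expressed form and the chromosomal neighbour of Tmod2, measured 82.1, 84.5 and 79.2 CPM in Control and 76.1, 81.3 and 81.1 CPM in CAP1-KO. The groups overlapped, with a log2 fold change of -0.04 (95% interval -0.16 to 0.07, limma adjusted p = 0.635) that was 0.02 when libraries were scaled to total reads.

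Tmod1 (gene number 21916, chromosome 4, 46038940 to 46116032), the form of red blood cells and muscle, had 40, 37 and 42 reads in FF1, FF2 and FF4 and 60, 37 and 43 reads in FCRE3, FCRE4 and FCRE5. FCRE3 was high and the other 5 libraries were close together, with a log2 fold change of 0.04 (95% interval -0.26 to 0.35, limma adjusted p = 0.873) that was -0.05 without FCRE3. Red blood cell markers (8 of 9 listed genes in the table, none at 0) summed to 153 to 166 CPM in Control, and to 217, 139 and 249.97 CPM in FCRE3, FCRE4 and FCRE5, and their part in the Tmod1 level was not tested. The Tmod1 gene overlaps the end of Tstd2 in the annotation, and Tstd2 averaged 40.15 CPM where Tmod1 averaged 1.26 CPM. Whether the authors' counting used strand is not given in the sources used here. The part of Tstd2 reads in the Tmod1 level was not tested.

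As shares of the tropomodulin transcripts per kilobase, Tmod2 made up 87.4% ± 0.17 in Control and 86.8% ± 0.30 in CAP1-KO, and Tmod3 12.1% ± 0.16 and 12.7% ± 0.21 (SD, n = 3 each). Both shares were separated between the groups, by differences of -0.66 and 0.58 percentage points (exact two-sided permutation p = 0.1 each, 0.15 after Benjamini-Hochberg adjustment over 3 shares), and 3 against 3 libraries cannot give less than 0.1. Tmod1 made up 0.51% ± 0.054 and 0.59% ± 0.16, with overlapping groups (exact permutation p = 0.5). With Tmod1 this small, the Tmod2 and Tmod3 shares nearly mirror each other and are not separate results. The shares themselves depend on the lengths used. With the longest transcript as length, Tmod2 made up 74.7% in Control and 73.6% in CAP1-KO, and Tmod3 24.9% and 25.9%.

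Eps8 and Add1 bind barbed ends together with other proteins, and neither passed the test with all libraries. Eps8 (gene number 13860, chromosome 6, 137477245 to 137649397), which caps or bundles filaments depending on its partner Abi1, measured 21.2, 22.2 and 23.0 CPM in Control and 17.4, 22.9 and 19.5 CPM in CAP1-KO. FCRE4 lay among the Control libraries, and the log2 fold change was -0.15 (95% interval -0.38 to 0.08, limma adjusted p = 0.394). It was -0.06 without FCRE3, the lowest library, -0.25 without FCRE4 and -0.09 with libraries scaled to total reads.

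Add1 (gene number 11518, chromosome 5, 34573664 to 34632308), alpha-adducin, measured 460.0 CPM in FF1, 449.9 CPM in FF2 and 397 CPM in FF4, against 396, 393 and 380.2 CPM in FCRE3, FCRE4 and FCRE5. FF4 lay 0.20 below the mean of FF1 and FF2 on the log2 scale and only just above the CAP1-KO libraries. With all libraries the log2 fold change was -0.16 (95% interval -0.31 to -0.0049, limma adjusted p = 0.205). Without FF4 it was -0.22 with a limma adjusted p of 0.00396, in a fit that called 28.2% of all genes tested (9.36% higher and 18.9% lower), and over the 14 alternatives the adjusted p ran from 0.00396 to 0.529. The cortical neuron markers summed to 3090.3, 3146 and 2094 CPM in FF1, FF2 and FF4. They summed to 2168, 2084 and 2272 CPM in FCRE3, FCRE4 and FCRE5. The part of these cells in the Add1 level was not tested. With libraries scaled to total reads the log2 fold change was -0.09.

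**Figure D3:**
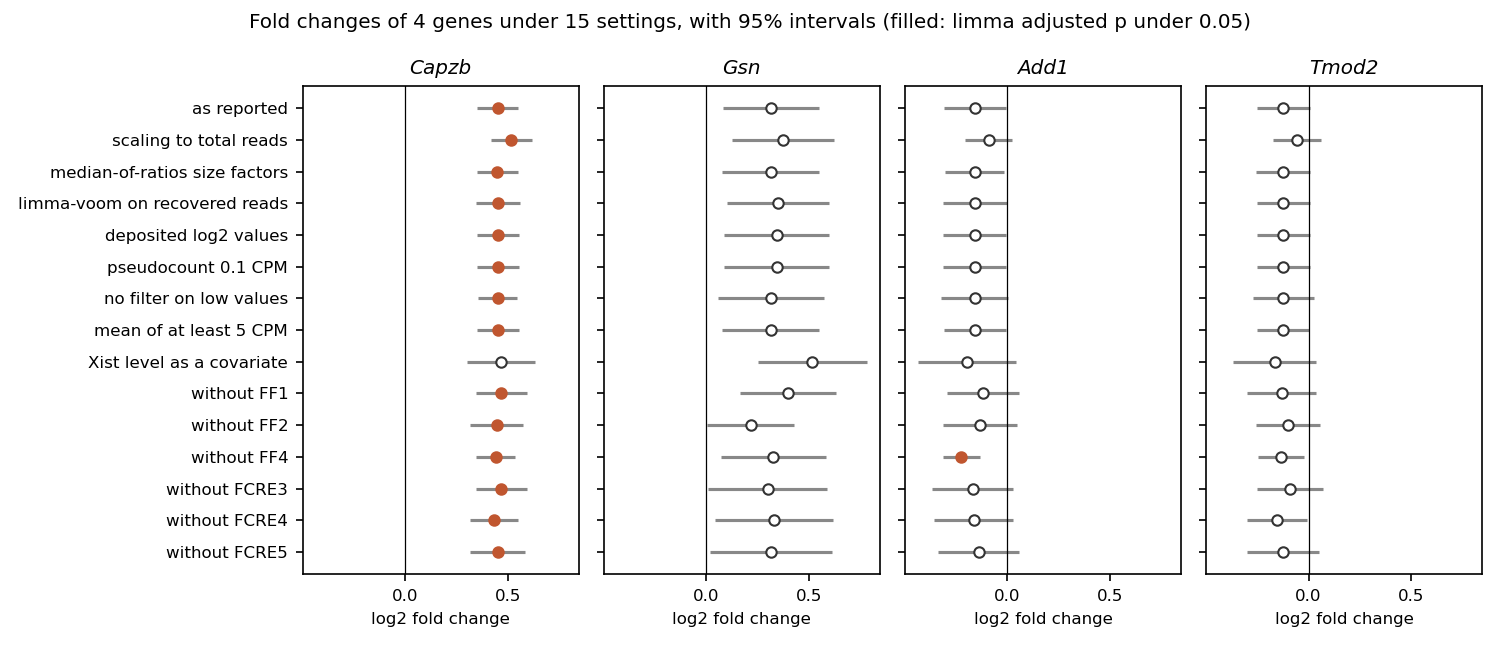
Log2 fold change (x axes, shared) of 4 genes under 15 settings (y axis), with 95% intervals as lines and filled points where the limma adjusted p was under 0.05. Capzb stays between 0.43 and 0.52 and is filled in all but the Xist covariate fit, while Add1 is filled only without FF4.

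Per kilobase of exonic bases, Capzb, Tmod2 and Add1 were highest, in an order that differed between the groups. In Control, Tmod2 (53.2 ± 1.40 CPM per kilobase, SD, n = 3) and Add1 (50.9 ± 3.97) stood above Capzb (47.5 ± 0.94), and the ranges of neighbours in this order overlapped. In CAP1-KO, Capzb was first at 65.0 ± 1.55 CPM per kilobase, clear of Tmod2 (48.9 ± 2.17) and Add1 (45.5 ± 0.96), whose ranges did not overlap. The other 7 genes had the same order in both groups, and their levels are given as mean ± SD over 6 libraries. Capza2 followed at 32.4 ± 0.81 CPM per kilobase, clear of its neighbours. Capza1 (7.88 ± 0.61) and Tmod3 (7.24 ± 0.26) overlapped. Gsn (3.34 ± 0.50) and Eps8 (1.70 ± 0.18) were each separate, and Capg (0.44 ± 0.051) and Tmod1 (0.32 ± 0.051) were lowest and overlapped. With the longest transcript as the length and all 6 libraries together, Add1 ranked above Tmod2, Tmod3 above Capza1, and Eps8 above Gsn.

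Other proteins of the same families showed no call. Of 18 listed relatives (further capping, gelsolin, leiomodin, Eps8-like, adducin and twinfilin genes) 8 were tested. Among these 8, 0 rose and 0 fell (limma), where 0.965% of all genes tested were called. An unadjusted limma p under 0.05 was reached by 3 of the 8, against 23.0% of all genes tested. The other 10 were below 1 CPM, among them Capza3, the testis form of the alpha subunit, and Lmod2, both with 0 reads in all libraries. The tested relatives had a median log2 fold change of 0.014. Add2, the beta-adducin of neurons, averaged 278 ± 35.9 and 221 ± 16.9 CPM in the Control and CAP1-KO libraries, with a log2 fold change of -0.32 (limma adjusted p = 0.128), and Flii, a gelsolin-like protein, 139 ± 11.1 and 126 ± 3.59 CPM (-0.14, adjusted p = 0.248). Without FF4, where 28.2% of all genes were called, 4 of the 8 were called, namely Add2 and Flii lower and Eps8l1 and Vill higher. The twinfilins Twf1 (0.02) and Twf2 (-0.06), which bind barbed ends and capping protein, had log2 fold changes near 0 (limma adjusted p = 0.852 and 0.568).

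Among proteins that bind capping protein, Eps8 or adducin, 1 of 18 rose and 0 fell. Over all genes tested, 0.562% rose and 0.403% fell. Plekho1 (gene number 67220, chromosome 3, 95988809 to 95999355), a membrane-associated protein that binds capping protein, measured 66.3, 64.4 and 56.6 CPM in Control and 90.2, 91.8 and 89.5 CPM in CAP1-KO. All CAP1-KO libraries were far above all Control libraries, and its mean rose from 62.4 ± 5.11 to 90.5 ± 1.203 CPM (log2 fold change 0.53, SE 0.06, limma adjusted p = 0.0121). It kept its call in 11 of 14 alternatives and lost it with the Xist covariate (adjusted p = 0.204), without FCRE3 (0.0626) and without FCRE5 (0.0860). The list's median was -0.046. Mtpn, which sequesters capping protein, had a log2 fold change of -0.09 (limma adjusted p = 0.355), and the CARMIL genes, whose products take capping protein off filament ends, had 0.03 (Carmil1), -0.36 (Carmil2) and -0.18 (Carmil3), with limma adjusted p of 0.680, 0.108 and 0.0963. Without FF4, 5 of the 18 were called, namely Plekho1 higher and Carmil2, Carmil3, Baiap2 and Sptbn1 lower. That fit called 28.2% of all genes tested (18.9% lower). Apart from Plekho1, the partner genes named here, the twinfilins and Tpm1 were singled out after their values were seen.

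**Figure D4:**
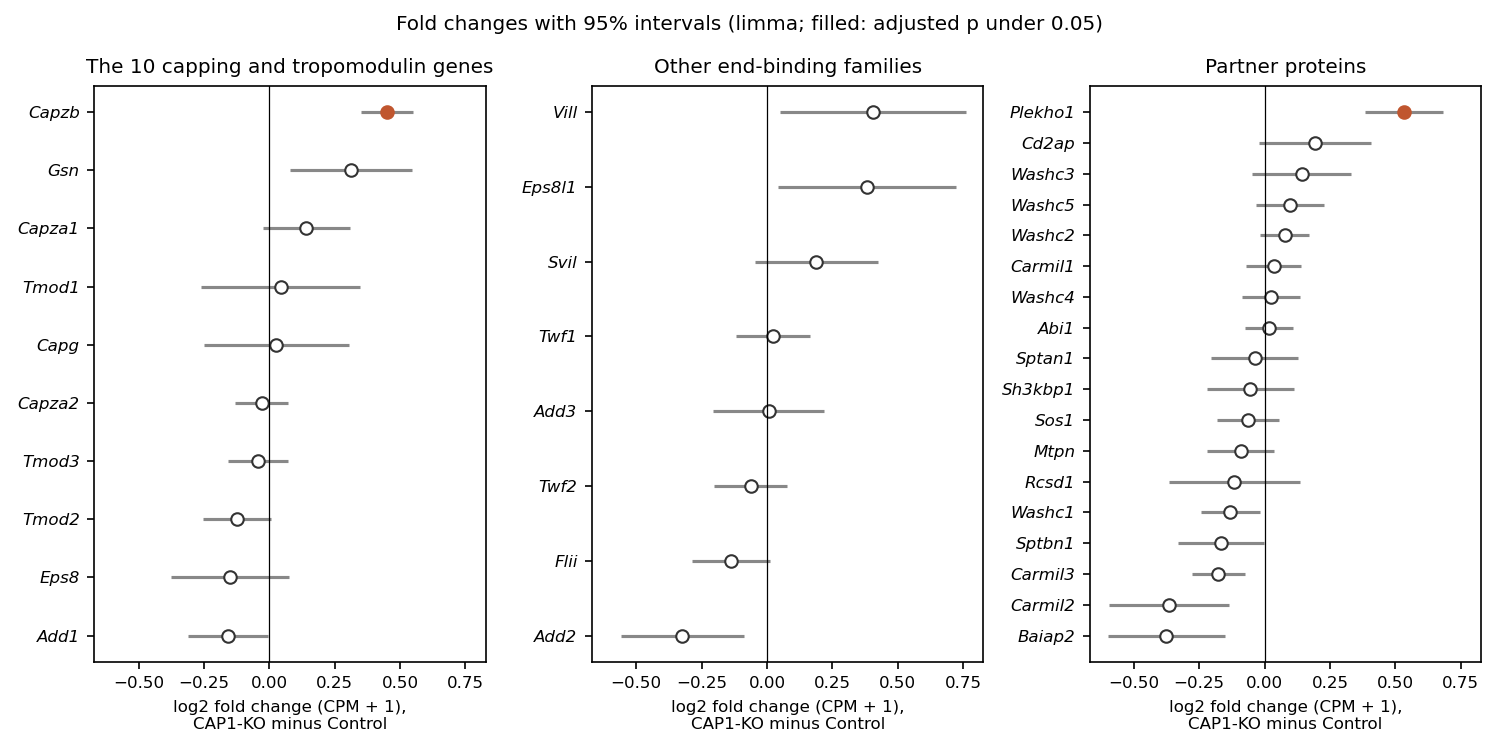
Log2 fold change of CAP1-KO against Control (x axis) with 95% intervals for the 10 genes, the 8 tested relatives and the 18 partner proteins. Filled points mark an adjusted p under 0.05, reached by Capzb (0.45) and Plekho1 (0.53).

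Dynactin, whose short Arp1 filament also carries capping protein at its barbed end, showed no call. Of its 9 genes 0 rose and 0 fell (limma), where 0.965% of all genes tested were called. The 9 genes had a median log2 fold change of 0.023 and a range of -0.18 to 0.10. An unadjusted limma p under 0.05 was reached by 1 of them, against 23.0% of all genes tested. Actr1a, which forms the Arp1 filament, averaged 399 ± 4.996 and 405 ± 7.22 CPM in the Control and CAP1-KO libraries, with a log2 fold change of 0.02 (limma adjusted p = 0.809). Dctn1, the large arm subunit, measured 389 ± 25.1 and 343 ± 6.41 CPM (-0.18, adjusted p = 0.139). Without FF4, Dctn1 and Dctn2 were called lower, in a fit that called 28.2% of all genes tested (18.9% lower).

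The change of Capzb was smaller than the median change of the actin and SRF-related genes, a list given here for scale. That list was known from earlier results of these data to rise. Of 19 tested genes in that list 14 rose and 0 fell, with a median log2 fold change of 1.19. Over all genes tested, 0.562% rose and 0.403% fell. Not called in the list were Zyx (log2 fold change 0.44), Ccn1 (0.29), Myh9 (0.04), Mrtfb (-0.17) and Mrtfa (-0.36). Without FF4, 15 of the list rose and 1 fell, in a fit that called 28.2% of all genes tested. With the Xist covariate 10 rose and 0 fell, and without FCRE5 also 10 and 0. Cnn2, a calponin, rose from 8.42 ± 1.27 to 123 ± 11.2 CPM, Acta2, smooth muscle actin, from 0.80 ± 0.56 to 49.6 ± 13.7 CPM, and Tagln from 0.89 ± 0.56 to 18.4 ± 5.28 CPM. For Actg2, an actin of enteric smooth muscle, the 3 Control libraries together gave 3 reads and the 3 CAP1-KO libraries 485, which is 147 times as many per scaled total (95% exact interval 49.96 to 715, counting error only). Tpm1, a tropomyosin that tropomodulins bind, rose by 0.36 on the log2 scale (limma adjusted p = 0.0335) and was the called gene of that list nearest to Capzb in size. The differences between these changes and that of Capzb were not tested. The authors' deposited table lists Capzb with an FDR of 0.00272 (log2 fold change 0.45) and the other 9 genes with 0.187 or more.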

How the data were processed

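Per the labels' protocols, total RNA was selected for poly(A) and made into stranded libraries. The submitters' processing notes name STAR, edgeR and the builds GRCm38 and mm10; for the read counter, annotation and filters, nothing is stated (not given in the sources used here). The deposited values, per the file headers, are log2 normalized counts of 6 libraries beside the authors' own log2 fold change, F score, p-value and FDR. Columns were assigned to groups by the genotype in their names.

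The offset shared by all libraries (0.0584 CPM) was removed, which left whole multiples of 1 step per library for 100% of values within 0.01. Those averaging 1 CPM or more were tested with limma 3.58.1 (R 4.3.3, intensity trend) on log2(CPM + 1), which understates changes of low genes, with Benjamini-Hochberg adjustment over 13885 genes and a threshold of 0.05. No covariate or block entered. Quantities with 1 value per library were compared by exact permutation. The fit was tested on simulated reads. The members, lists and rules were chosen with earlier results of these data known. Text names all 10 members, Cap1, and from each other list up to 4 called genes of largest change, or else the 2 of highest mean; other genes were named after their values were seen.

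Gene numbers, not symbols, identified list genes, because the deposited symbol named another RefSeq gene (GRCm38.p6) in 7 of 13614 tested rows and in 6326 of 11205 rows below the filter; for all 10 members number and symbol matched. Lengths came from GENCODE M21. Alternatives were other scalings, limma-voom on recovered reads, the deposited log2 values, a pseudocount of 0.1 CPM, other filters, the Xist level as covariate and leaving out each library. Intervals on reads cover counting error only. Figures were drawn with matplotlib 3.10.9.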

Additional observations from a re-analysis of the deposited data

How the results depend on the processing

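Capzb was higher in CAP1-KO in all 14 alternatives (log2 fold change 0.43 to 0.52) and was called in 13. The number of the 10 genes called was 0 with the Xist covariate and 1 to 2 when each library was left out in turn, the second being Add1 without FF4. Leaving out each library gave 0 to 4 called relatives, 0 to 5 called partner genes and 0 to 2 called dynactin genes, with the highest counts without FF4, and the Xist covariate gave 0 called partner genes. Over all genes tested, 1299 rose and 2623 fell without FF4, 36 and 6 without FF1, 49 and 11 without FF2, 62 and 7 without FCRE3, 78 and 175 without FCRE4, 33 and 3 without FCRE5, 23 and 3 with the Xist covariate, and 68 and 20 with no filter, against 78 and 56 as reported; the cause was not tested. Scaling to total reads raised the median of all genes from -0.0059 to 0.056 and gave log2 fold changes of 0.036 for Capza2 and 0.022 for Tmod3. When each library was left out, Capg ran from -0.031 to 0.074 and Tmod1 from -0.053 to 0.13. With the longest transcript as length, the differences in tropomodulin shares were -1.08 percentage points for Tmod2 and 1.01 for Tmod3. A mean of at least 5 CPM gave no value for Capg and Tmod1. No paired analysis was possible because the library columns carry none of the labels' replicate numbers. Depth limits Capg and Tmod1, with 30 to 47 and 37 to 60 reads per library.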

Other observations

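Low rows of the deposited table carry symbols that can mislead a search by name. The row with the symbol Eps8l2 has the gene number of Drd4, and the gene number of Eps8l2 stands beside the symbol B230206H07Rik, with 10 reads over the Control and 32 over the CAP1-KO libraries. The gene number of Capza3 stands beside Gm10400, with 0 reads. Among the relatives below 1 CPM, Lmod1 had 9 and 22 reads and Lmod3 had 11 and 33 reads in Control and CAP1-KO, while Tmod4 had 84 and 77 and Avil 75 and 95; these were not tested.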
